A study of Mus musculus with 8 samples.

Results

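The genes described here mark Schwann cells and the myelin of the nerves that run through fat. They are 8 of the 54532 genes in the deposited table, chosen by name: Sox10, Cdh19, Scn7a, Ncam1, Prx, Pmp22, Mbp and Cnp. Messenger RNA was sequenced from iWAT, the white fat under the skin of the groin, of male mice, all fed a high-fat diet (HFD). Wild-type mice (WT) gave 4 libraries, and mice with the transcription factor gene Klf10 knocked out in adipocytes (KLF10AKO) gave another 4. The Cre line, strain, age and number of animals per library are not given in the labels used here, so p-values measure only the spread between these libraries, which may in part be technical. The deletion is aimed at adipocytes, and Schwann cells are another lineage.

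Schwann cells are the glia of peripheral nerves. Myelinating Schwann cells wrap a single large axon in a compact sheath of membrane, and non-myelinating (Remak) Schwann cells ensheathe bundles of small axons, the kind by which sympathetic nerves reach adipocytes. SOX10 sets and keeps the lineage, and together with EGR2 it turns on the myelin genes. Much of the mRNA of nerve in fat is glial, because the cell bodies of the neurons lie outside the tissue in ganglia.

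The promoter windows of Prx, Scn7a and Cnp are shown because these genes took opposite directions below while each holds a short match to the DNA letters known for SOX or EGR factors. Each is the 250 bases before the RefSeq start site (GRCm38.p6, which is mm10) on the strand of the gene, in lower case with the match in capitals. The Prx window is chr7:27499074-27499323 on the plus strand, the Scn7a window chr2:66784911-66785160 on the minus strand and the Cnp window chr11:100574689-100574938 on the plus strand.
Prx: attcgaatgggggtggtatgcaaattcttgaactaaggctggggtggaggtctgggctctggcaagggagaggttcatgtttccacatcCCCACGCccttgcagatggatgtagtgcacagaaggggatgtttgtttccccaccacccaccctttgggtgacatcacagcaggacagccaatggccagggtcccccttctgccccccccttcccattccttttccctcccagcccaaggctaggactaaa
Scn7a: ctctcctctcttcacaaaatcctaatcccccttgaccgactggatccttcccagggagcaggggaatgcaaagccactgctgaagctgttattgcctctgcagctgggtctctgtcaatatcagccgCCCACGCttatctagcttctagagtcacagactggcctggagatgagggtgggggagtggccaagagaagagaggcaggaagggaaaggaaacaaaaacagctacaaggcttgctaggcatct
Cnp: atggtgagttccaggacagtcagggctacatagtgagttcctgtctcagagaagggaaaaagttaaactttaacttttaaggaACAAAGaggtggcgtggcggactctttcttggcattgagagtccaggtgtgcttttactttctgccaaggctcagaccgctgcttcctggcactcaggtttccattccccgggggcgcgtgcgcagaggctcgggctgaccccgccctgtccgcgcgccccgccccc
Both strands were searched for GCGTGGG and GCGGGGG, cores of the EGR element, and for ACAAAG and ACAATG, cores of the SOX element. The capitals in Prx and Scn7a are GCGTGGG on the opposite strand, with the first base at -161 and -123 from the start site, and those in Cnp are ACAAAG from -167. Windows were matched for 4 members, and the 4 windows of Pmp22 held none of these letters. Of 32851 windows of the same length, GCGTGGG was in 4.30%, GCGGGGG in 9.63%, ACAAAG in 16.5% and ACAATG in 10.7%. The GENCODE gene models of Cnp and Scn7a begin slightly inside these windows. A match of letters describes the window and is no binding site.

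Levels are given in the FPKM of the authors, which divide reads by gene length and by a scaled library size and so can be compared between genes. Differences are on log2(FPKM + 0.5) from one limma fit of all genes, called at a Benjamini-Hochberg adjusted p below 0.05. On that scale the fold of a low gene is understated, so ratios of mean FPKM are also given. Between 15537863 and 17499132 reads per library could be recovered from the values. These were 1.05 to 1.09 times the library size that the values imply in WT, and 0.901 to 0.939 times it in KLF10AKO. A scaling that differs between the groups is thus part of every FPKM change below. Klf10, the targeted gene, stood at 16.7 to 21.1 FPKM in WT and at 9.39 to 9.75 in KLF10AKO (log2 change -0.88, adjusted p = 8.96e-06, and 0.73 relative to adipocyte markers, a scaling described below). The KLF10AKO libraries also held lymphocyte RNA that was near absent from WT: the summed FPKM of 10 B cell markers ran from 3.01 to 4.72 in WT and from 1212 to 1796 in KLF10AKO. A summed FPKM of 4600 to 10719 for 14 skeletal muscle genes set KLF10AKO replicates 1 to 3 apart from replicate 4, at 49.6, and from WT, at 172 to 225. All 7 trophoblast genes listed were read in WT and were at 0 in KLF10AKO. These differences touch every result below, and their part in them was not tested.

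The members split. Of the 8, 5 (Sox10, Cdh19, Scn7a, Prx and Pmp22) had mean FPKM 2.20-fold to 2.89-fold lower in KLF10AKO. Their groups did not overlap, while after scaling to adipocyte markers their changes lay above 0 and did not pass the test. Cnp went the other way and was 4.53-fold higher, Mbp was 1.16-fold higher, and Ncam1 overlapped between the groups. Of the 8 members 6 passed the filter of a mean of 0.5 FPKM, and of these 4 fell and 2 rose, while among all 16012 genes fitted 34.9% fell and 39.4% rose, 74.3% in all. With KLF10AKO replicate 4, the library whose summed muscle level was nearest to WT, alone against WT, again 4 fell and 2 rose, against 29.7% and 32.4% of all genes. With no filter all 8 were fitted, 5 fell and 1 rose, against 19.6% and 23.5% of 31609 genes. With directions this common, the counts alone set the members apart from no other genes. In whole tissue, fewer cells of a type and less RNA per cell cannot be told apart.

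**Figure D1:**
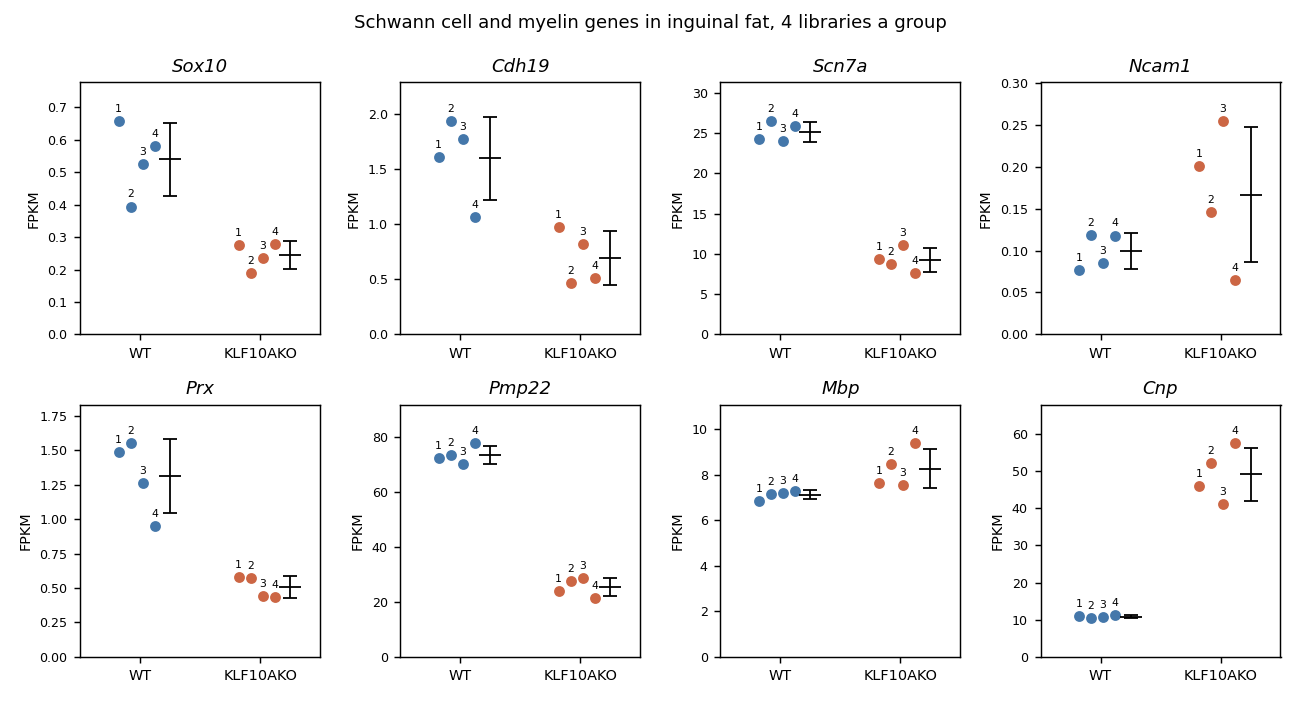
FPKM of each member in the 4 WT (blue) and 4 KLF10AKO (orange) libraries, numbered by replicate, with the mean and SD as bars; each axis starts at 0. Sox10, Cdh19, Scn7a, Prx and Pmp22 are lower in every KLF10AKO library, Cnp is higher in every one, and Ncam1 in replicate 4 lies below all WT values while replicates 1 to 3 lie above them.

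Sox10 (ENSMUSG00000033006, chromosome 15, 79154908 to 79165240, minus strand) encodes the transcription factor that defines the lineage. WT replicates 1 to 4 held 0.658, 0.394, 0.524 and 0.580 FPKM of it. KLF10AKO replicates, in the same order, held 0.277, 0.190, 0.235 and 0.279 FPKM. Every KLF10AKO value lay below every WT value. These levels rest on 20 to 30 reads per WT library and 11 to 16 per KLF10AKO library, under the filter. In the fit without a filter Sox10 fell by 0.48 on the log2 scale (standard error 0.110, adjusted p = 0.00754), and with KLF10AKO replicate 4 alone against WT, assumed to vary as WT does, the change was -0.41 and did not pass (adjusted p = 0.167).

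Cdh19 (ENSMUSG00000047216, chromosome 1, 110888326 to 110977584, minus strand) encodes a cadherin known from Schwann cell precursors and adult Schwann cells. It stood at 1.61, 1.94, 1.77 and 1.07 FPKM in WT replicates 1 to 4. In KLF10AKO replicates 1 to 4 it stood at 0.973, 0.468, 0.825 and 0.516. The groups did not overlap, but the lowest WT library, replicate 4, came close to the highest KLF10AKO library, replicate 1. The log2 change was -0.81 (standard error 0.188, 95% interval -1.24 to -0.39, adjusted p = 0.00368).

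Scn7a (ENSMUSG00000034810, chromosome 2, 66673425 to 66784914, minus strand) encodes the sodium-sensing channel Nax, which non-myelinating Schwann cells express. Its WT values were tight, at 24.2, 26.5, 24.0 and 25.9 FPKM. The KLF10AKO values were 9.39, 8.75, 11.1 and 7.61 FPKM, all under the lowest WT value. Scn7a fell by 1.41 on the log2 scale (standard error 0.103, 95% interval -1.65 to -1.18, adjusted p = 2.65e-06).

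Ncam1 (ENSMUSG00000039542, chromosome 9, 49502136 to 49798925, minus strand) encodes a neural cell adhesion molecule of non-myelinating Schwann cells that regenerating muscle and the neuromuscular junction also carry. WT libraries held 0.0773, 0.118, 0.0846 and 0.118 FPKM, against 0.201, 0.146, 0.255 and 0.0654 in KLF10AKO. KLF10AKO replicates 1 to 3 were above all WT libraries and replicate 4 was below them all. The counts were 10 to 17 reads per WT library and 33, 24, 40 and 10 in KLF10AKO. The fit without a filter gave 0.15 on the log2 scale (95% interval -0.07 to 0.36, adjusted p = 0.257), which became -0.084 with replicate 4 alone (adjusted p = 0.361) and 0.22 without it (adjusted p = 0.0333). Across the 4 KLF10AKO libraries Ncam1 had the same order as the skeletal muscle sum and as Myod1, a muscle precursor factor. Myod1 stood at 0.368, 0.283, 0.830 and 0 FPKM there and at 0 in all of WT. Scn7a and the sums of adipocyte, fibroblast and endothelial markers, given below, shared that order. The part of any tissue in the level of Ncam1 was not tested.

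Prx (ENSMUSG00000053198, chromosome 7, 27499324 to 27520214, plus strand) encodes periaxin, which links the myelin sheath to the basal lamina through dystroglycan. The WT libraries read 1.49, 1.55, 1.27 and 0.952 FPKM. The KLF10AKO libraries read 0.577, 0.576, 0.445 and 0.437 FPKM, and the groups did not overlap. Prx fell by 0.84 on the log2 scale (standard error 0.140, 95% interval -1.16 to -0.52, adjusted p = 5.20e-04). An antisense gene shares 5.38% of its exon bases and was read at 0.127 FPKM in WT on average.

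Pmp22 (ENSMUSG00000018217, chromosome 11, 63128982 to 63159547, plus strand) encodes a tetraspan protein of compact myelin that fibroblasts and epithelia make too. Its level was the highest of the 8 in WT, at 72.6, 73.6, 70.1 and 77.9 FPKM. It stood at 24.1, 27.6, 28.7 and 21.4 FPKM in KLF10AKO, far from the WT range. Pmp22 fell by 1.52 on the log2 scale (standard error 0.0931, 95% interval -1.73 to -1.31, adjusted p = 9.58e-07). Among 7 fibroblast markers, 6 fell and 1 rose (1 and 3 after adipocyte-marker scaling), beside 34.9% and 39.4% of all genes (1.11% and 87.8% after it). Their median log2 change was -1.02, and their summed FPKM went from 513 to 612 in WT to 155 to 239 in KLF10AKO. The part of fibroblasts in the level of Pmp22 was not tested.

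Mbp (ENSMUSG00000041607, chromosome 18, 82475146 to 82585637, plus strand) encodes myelin basic protein, which zips the inner faces of the myelin membrane together. The same gene makes longer Golli transcripts from an upstream start, known from lymphoid cells as well as brain. In the GENCODE annotation 3 coding transcripts begin in the upstream start region and 11 about 79.3 kb further on. The deposited gene length is 8403 bases, against 8469 exon bases in that annotation, so which transcripts the value sums is not known. A single value is given for the gene, so the forms were not told apart. Mbp stood at 6.84, 7.16, 7.22 and 7.29 FPKM in WT. The KLF10AKO libraries gave 7.65, 8.46, 7.55 and 9.39 FPKM, above WT by a narrow margin and without overlap. The log2 change of 0.19 (standard error 0.0748, 95% interval 0.02 to 0.37, adjusted p = 0.0403) sat at the threshold: it was no longer past it when any WT library, KLF10AKO replicate 2 or KLF10AKO replicate 4 was left out, with changes of 0.13 to 0.21 and adjusted p of 0.0581 to 0.0985.

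Cnp (ENSMUSG00000006782, chromosome 11, 100574904 to 100591729, plus strand) encodes a cyclic nucleotide phosphodiesterase of the myelin cytoplasm that many other cells, lymphocytes among them, also express. Its WT values were 11.0, 10.4, 10.6 and 11.4 FPKM. In KLF10AKO it stood at 45.8, 52.1, 41.1 and 57.5 FPKM, the largest ratio between the groups among the members. Cnp rose by 2.12 on the log2 scale (standard error 0.0990, 95% interval 1.89 to 2.34, adjusted p = 2.06e-07). Dnajc7, a chaperone gene on the opposite strand with 21.9 FPKM in WT and 50.0 in KLF10AKO, shares 154 exon bases with it, 4.23% of the gene. The strand setting is not given in the sources used here, so reads in those bases cannot be assigned.

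For each of the 7 members whose groups did not overlap, the exact two-sided permutation test gave p = 0.0286, the smallest that 4 against 4 libraries allow. Over all genes fitted that became an adjusted p of 0.0413 for the 6 members in the fit. All KLF10AKO values lay above all WT values in 36.2% of genes and below them in 33.0%. For Ncam1 the permutation p was 0.171.

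The order of levels changed between the groups. In WT it ran Pmp22, Scn7a, Cnp, Mbp, Cdh19, Prx, Sox10 and Ncam1, and Cdh19 and Prx were the sole neighbours whose library values overlapped. In KLF10AKO Cnp stood first, ahead of Pmp22, and the neighbours Scn7a and Mbp, Cdh19 and Prx, and Sox10 and Ncam1 overlapped.

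The fall of the 5 lower members, which were picked here by their direction, was set beside that of adipocytes. All 14 adipocyte markers fell, with a median log2 change of -1.77, and their summed FPKM went from 10438 to 11498 in WT to 3825 to 4589 in KLF10AKO. After dividing every library by its own mean level of these markers, the median change of all genes moved from 0.05 to 1.47, 87.8% of genes rose and 1.11% fell. On that scale none of the 5 passed: Pmp22 stood at 0.13 (95% interval -0.09 to 0.35, adjusted p = 0.228), Prx at 0.19 (-0.16 to 0.54, adjusted p = 0.258) and Cdh19 at 0.30 (-0.11 to 0.71, adjusted p = 0.149). Scn7a was at 0.20 (adjusted p = 0.0577), and Sox10, without a filter, at 0.23 (-0.05 to 0.51, adjusted p = 0.161). These intervals leave room for changes of up to 0.71 relative to adipocyte markers. Mbp and Cnp rose on both scales, to 1.76 (adjusted p = 1.19e-06) and 3.73 (adjusted p = 4.41e-08) after scaling. Ncam1 passed after it, at 0.49 without a filter (adjusted p = 0.00455). For comparison, 7 endothelial markers had a median of -0.76 on the authors' scale and 0.75 after scaling.

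**Figure D2:**
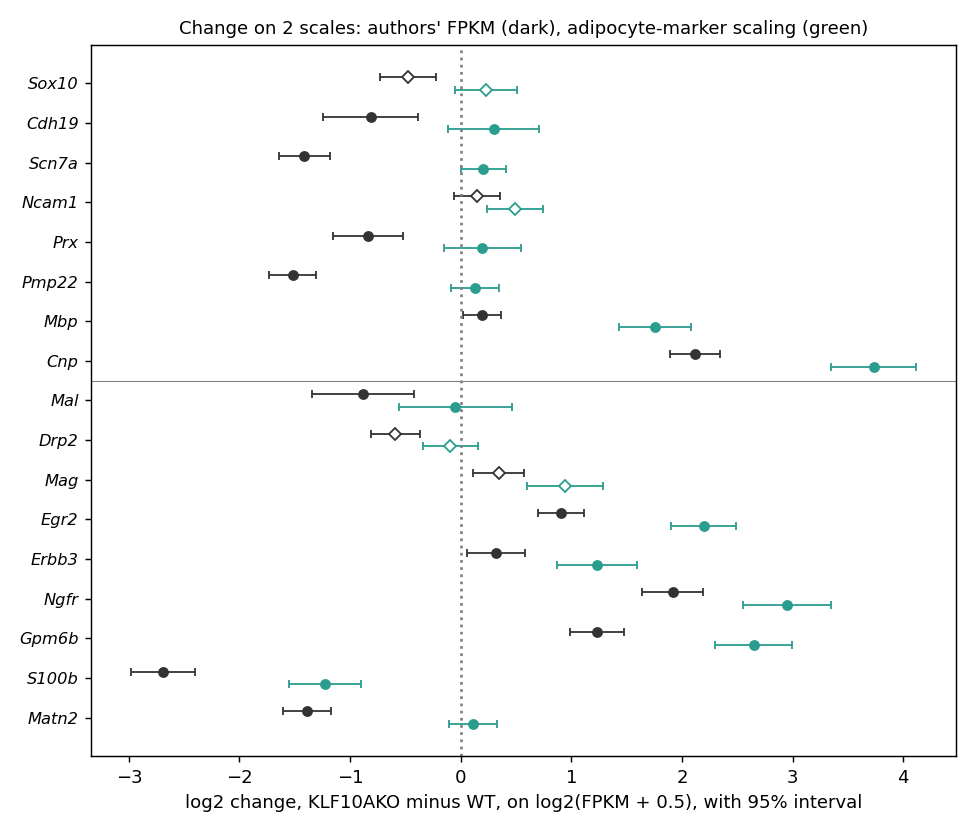
Fitted log2 change, KLF10AKO minus WT, with its 95% interval for the 8 members (above the line) and 9 other nerve genes, on the authors' FPKM scale (dark) and after scaling to 14 adipocyte markers (green); open diamonds are genes fitted without a filter. Sox10, Cdh19, Scn7a, Prx and Pmp22 move from below 0 to intervals that reach or touch 0, while Cnp moves from 2.12 to 3.73.

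Within the groups the members did not move as a block. With each group's mean removed, log2 levels of Cnp and Mbp correlated at r = 0.90 over the 8 libraries, and those of Scn7a and Ncam1 at r = 0.98, whereas Sox10 had r = -0.27 with Scn7a and -0.33 with Prx. These are descriptions of libraries that share their scaling and their mix of tissues. Among the 4 KLF10AKO libraries Cnp and Mbp were highest in replicate 4 and lowest in replicate 3. The summed B cell markers had that order too, at 1455, 1546, 1212 and 1796 FPKM in replicates 1 to 4. Scn7a had the reverse order, which the adipocyte sum shared, at 4216, 4191, 4589 and 3825 FPKM, and so did the skeletal muscle, fibroblast and endothelial sums. Their part in these levels was not tested.

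**Figure D3:**
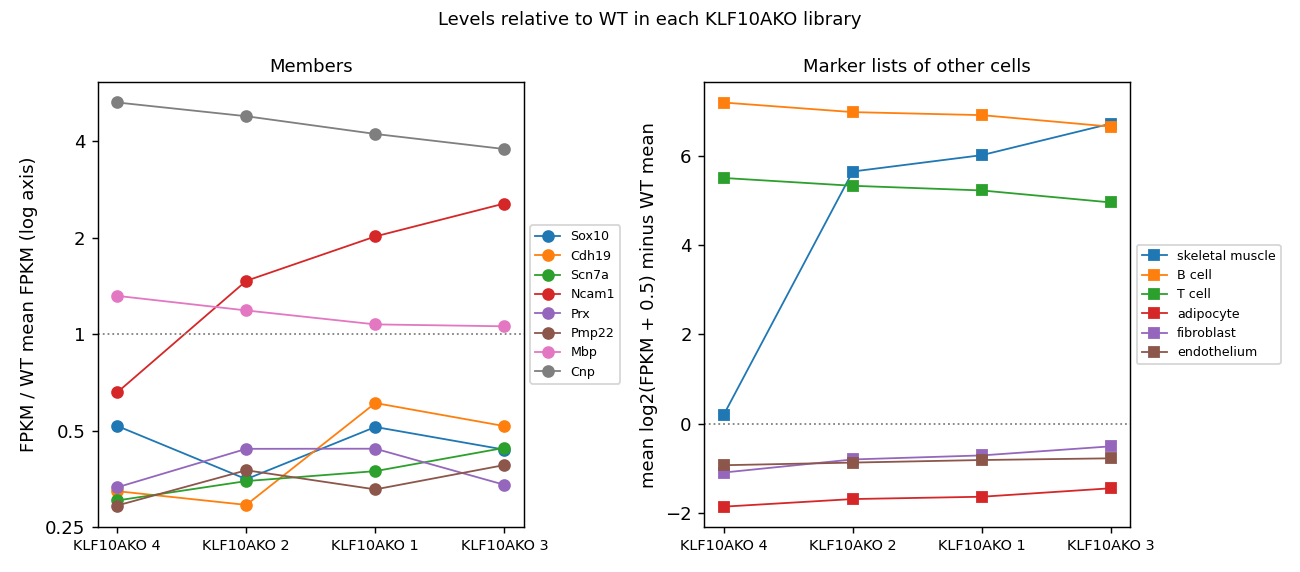
Left, FPKM of each member divided by its WT mean (log axis) in the 4 KLF10AKO libraries, arranged by their summed muscle level; right, the mean log2 level of marker lists of other cells minus the WT mean in the same libraries. Skeletal muscle genes lie near WT in replicate 4 (0.20) and at 5.64 to 6.71 in the other 3. Ncam1 goes from 0.658 to 2.56 times its WT mean along the same order, which the adipocyte, fibroblast and endothelial lists also follow.

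Genes most like each member were found by the same group-centred correlation among genes with a mean of at least 2 FPKM. With 8 libraries and 11712 candidates high values are common, so these are descriptions. Nearest to Mbp were Rsf1, Cmtm7 and Tespa1 (r = 0.98), and among the nearest to Cnp were Meis3 (r = 0.99) and Sp100. Scn7a lay closest to Wsb2, Lmna and Ctsl (r = 0.99), and Pmp22 to Fam124a (r = 0.99), Cd14 and Wdsub1. Ncam1 was nearest to Limch1 (r = 0.99), Mir6999 and Usp47, and Sox10 to Ubr4 (r = 0.98), Yjefn3 and Dopey2. Despite that minimum, Mir6999 had only 0 to 6 reads per library. Prx was nearest to A130006I12Rik (r = 0.96), Armc1 and Tomm5, and Cdh19 to Ccny (r = 0.95), Hdhd2 and Acp6.

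Of 11 other genes of the myelin sheath 1 passed the filter, only through its WT level, and fell. Without a filter 6 fell and 1 rose, beside 19.6% and 23.5% of all genes, with a median of -0.33 against 0.01 for all genes. After adipocyte-marker scaling none of these 6 passed as lower (adjusted p = 0.157 to 0.922 without a filter). On that scale 279 of all 31609 genes passed as lower and 17127 as higher, so few genes of any kind were lower. Drp2, the dystrophin-related partner of periaxin, stood at 0.351 to 0.525 FPKM in WT and at 0.0493 to 0.154 in KLF10AKO, and fell by 0.59 without a filter (adjusted p = 0.00116; -0.093 after that scaling, adjusted p = 0.496). The proteolipid gene Mal, the 1 that passed the filter, fell by 0.88 in the fit without a filter (adjusted p = 0.00662). It had 163 reads over WT and 58 over KLF10AKO. It stood at -0.049 after that scaling, and at -0.63 on the authors' scale with KLF10AKO replicate 4 alone. Also lower without a filter were the tetraspan gene Pllp, the tight junction gene Cldn19 and the myelin lipid enzymes Ugt8a and Fa2h. Mag, a glycoprotein of the inner myelin surface, was the 1 that rose, at 0.134 to 0.213 FPKM in WT and 0.244 to 0.440 in KLF10AKO, 0.34 higher on the log2 scale (adjusted p = 0.0220) from 46 reads over WT and 111 over KLF10AKO, and with quantile normalization it stood at 0.13 and did not pass (adjusted p = 0.343).

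Of 7 regulators of the lineage 3 passed the filter, 2 higher and 1 lower, or 3 higher and 0 lower after adipocyte-marker scaling. In this list and the next 3 the counts stand beside 39.4% higher and 34.9% lower among all genes, or 87.8% and 1.11% after scaling. They are too small to set a list apart. Egr2, the myelin activator whose letters were searched above, measured 1.32, 1.33, 1.25 and 1.38 FPKM in the WT libraries against 2.58, 2.65, 3.28 and 3.19 in those of KLF10AKO, and rose by 0.90 (adjusted p = 2.07e-05). Its co-regulator Nab2 rose by 0.95 (adjusted p = 3.62e-06). The zinc-finger factor gene Zeb2 fell by 0.90 (adjusted p = 5.98e-06) but passed as higher after that scaling (0.65, adjusted p = 4.21e-05), under the median of 1.47 for all genes there. Lymphocytes and macrophages express these 3 genes too. Of 10 receptors and ligands 5 passed the filter, 3 higher and 2 lower, or 4 and 0 after scaling. Ngfr, the low-affinity neurotrophin receptor of immature and Remak Schwann cells, which follicular dendritic cells of lymph nodes also carry, stood at 0.271 to 0.466 FPKM in WT and 2.29 to 3.27 in KLF10AKO. It passed the filter only through its KLF10AKO level, so its place in that count is a description. Without a filter its log2 change was 1.92 (adjusted p = 7.18e-06). Of the neuregulin receptor genes, Erbb2 fell by 0.72 (adjusted p = 2.18e-04) but passed as higher after adipocyte-marker scaling (0.67, adjusted p = 0.00144), also under that median of all genes. Erbb3, which Schwann cells need to survive, was at 0.32 (adjusted p = 0.0317; -0.14 with quantile normalization), a call lost without WT replicate 2 or 3 or KLF10AKO replicate 1, 2 or 4 (adjusted p = 0.0609 to 0.0766). Lpar1, a lysophosphatidic acid receptor, rose by 0.75 (adjusted p = 7.29e-04).

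Of 11 genes of non-myelinating and immature Schwann cells 6 passed the filter, 3 higher and 3 lower, or 3 and 1 after adipocyte-marker scaling. S100b, a calcium-binding protein used as a Schwann marker that adipocytes also make, measured 13.8, 14.7, 11.9 and 11.5 FPKM in the WT libraries against 1.85, 1.14, 1.75 and 1.64 in those of KLF10AKO. It fell by 2.69 (adjusted p = 2.42e-07), and by 1.23 after adipocyte-marker scaling (adjusted p = 1.84e-05). The matrix gene Matn2 fell by 1.39 (adjusted p = 1.80e-06; 0.11 after that scaling), while the membrane glycoprotein gene Gpm6b rose by 1.23 (adjusted p = 8.40e-06). Of 12 axon genes 5 passed the filter, 2 higher and 2 lower, or 3 and 0 after scaling, and without a filter 4 were higher and 2 lower, beside 23.5% and 19.6% of all genes. Nefh, the heavy neurofilament gene, had 1 read over WT and 279 over KLF10AKO. Nefl, the light one, and Th, the marker enzyme of sympathetic neurons, had 0 reads in all 8 libraries. Prph, with 5 reads over WT and 144 over KLF10AKO, passed the filter only through its KLF10AKO level, so its change of 1.41 is a description. Stmn2 rose by 1.14 (adjusted p = 2.23e-05), and Uchl1 fell by 0.99 (adjusted p = 3.57e-04; 0.15 after that scaling). With KLF10AKO replicate 4 alone Uchl1 stood at -0.74, which did not pass (adjusted p = 0.0632).

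**Figure D4:**
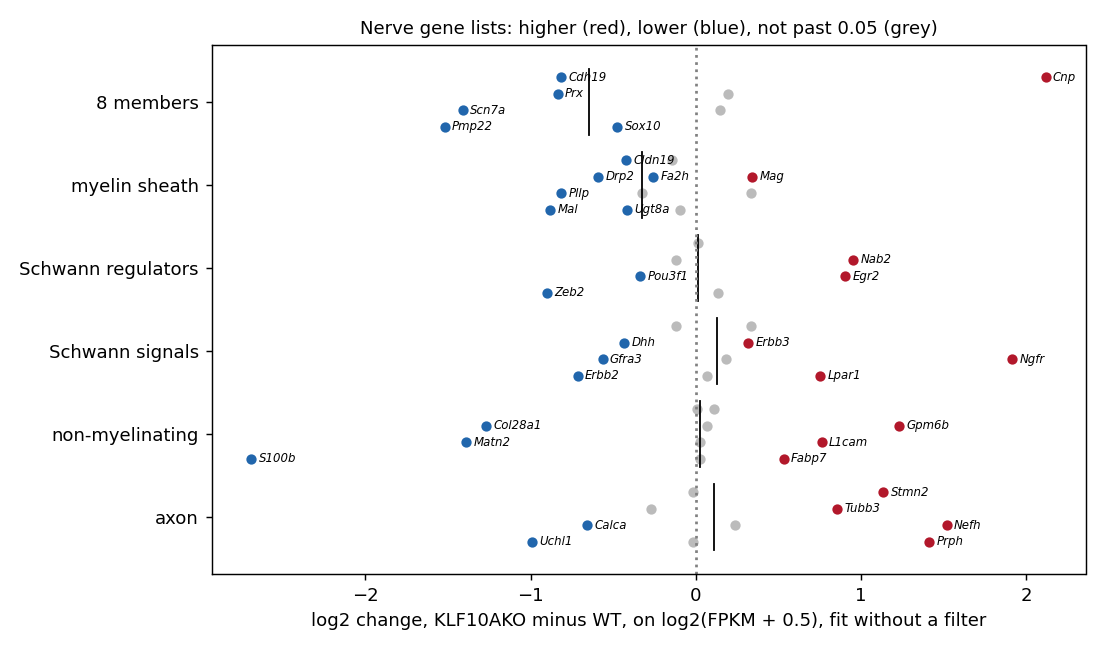
Log2 change of every gene read in the members and 5 other nerve lists, fitted without a filter; red and blue points passed an adjusted p of 0.05, grey points did not, and black bars are list medians. Myelin sheath genes lie mostly below 0 (median -0.33), with 6 called lower and 1 higher. The other 4 lists also hold called genes on both sides.

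Other cells that carry some of these genes were checked by their own markers. Of the genes that define oligodendrocytes, the myelin-forming cells of the brain, 6 were listed with a summed FPKM of 0.133 to 0.271 in WT and 1.10 to 2.04 in KLF10AKO. The KLF10AKO sum was mostly Cldn11, a tight junction gene that other cells express too, at 1.44 ± 0.416 FPKM (SD, n = 4), while Mog, Mobp, Olig1, Olig2 and Opalin averaged at most 0.0894 FPKM in either group. Melanocytes, another SOX10 lineage, were represented by 5 genes, with sums of 0.948 to 2.62 FPKM in WT and 3.30 to 5.15 in KLF10AKO, of which Pmel made 3.78 ± 0.952 FPKM (SD, n = 4) in KLF10AKO. The other melanocyte genes did not follow that sum: without a filter Dct (56 reads over WT, 9 over KLF10AKO) and Mlana (49 and 18) fell, Tyr (0 and 45) rose, and Tyrp1 had 3 and 0. Epithelial genes summed to 0.416 to 1.30 FPKM in WT and 1.08 to 1.98 in KLF10AKO, with Krt5 at 0 throughout. The higher sum was that of Epcam (6 reads over WT, 216 over KLF10AKO), while Krt8 (39 and 3) and Krt18 (49 and 14) fell without a filter.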

How the data were processed

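Total RNA of 8 iWAT libraries was poly(A)-selected, fragmented and primed with random hexamers, per the labels. The submitters' processing notes name the build mm10 and the tools featureCounts 1.5.0-p3, HISAT2 2.0.5 and edgeR 3.22.5. Which annotation and strand option they used is not given in the sources. The values are FPKM deposited by the authors. Per-library steps of FPKM times gene length gave whole reads for 100% of values (within 0.01 of a read).

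WT and KLF10AKO (n = 4 each) were compared in R 4.3.3 by limma 3.58.1: lmFit and eBayes with trend on log2(FPKM + 0.5) of 16012 genes with a mean of at least 0.5 FPKM, no covariate, two-sided, Benjamini-Hochberg over all genes, threshold 0.05. Sox10, Ncam1, Drp2 and Mag lie under that filter and were fitted without it. The procedure was tested on simulated data (4 against 4, 16012 genes). Of the genes given a 2-fold change 94.7% were recovered, and of those given a 1.5-fold change 73.2%, while 4.19% of calls were false. Only a small set of genes was changed there, up and down in equal number and all above a minimum read count in WT. The spread was assumed, and the mix of tissues was not changed. In the real data 74.3% of genes were called, so these rates cannot be carried over to them or to low genes.

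The members, lists and rules were chosen with earlier results of these data known. Named were the members, Klf10, up to 3 genes of lowest p among those of each nerve list that passed the filter, other lists' leading genes and each member's 3 nearest genes; Drp2, Mag, Erbb3 and the list exceptions named were chosen after their values were seen. A few genes that these rules name are not reported here. Where a symbol had several rows, the one of highest mean was used. Alternatives were pseudocounts, filters, TPM, quantile normalization, adipocyte-marker scaling, other eBayes settings, voom on the recovered reads with trimmed-mean factors, leaving out each library, a replicate block, and KLF10AKO replicate 4 alone. Scaling together with no filter was added after the data were seen. Promoter windows are from RefSeq (GRCm38.p6), exon overlaps from GENCODE M21.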

Additional observations from a re-analysis of the deposited data

Results flagged for a closer look

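Among 25 named genes in 2 groups each, 2 values stood far from the other 3 libraries of their group, by a gap above Dixon's 95% critical share of the group's range. Chance gives about 1 in 20 such groups. Uchl1 was at 2.51 FPKM in WT replicate 2, against 1.63 in the next library. Zeb2 was at 4.11 FPKM in KLF10AKO replicate 4, against 4.80 in the next.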

How the results depend on the processing

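The count of 4 lower members held under both other pseudocounts, TPM, quantile normalization, both other eBayes settings, voom, the replicate block, KLF10AKO replicate 4 alone and each library left out (4 to 4). It was 5 with no filter, 2 with a minimum mean FPKM of 2, which fits only 4 members, and 0 with adipocyte-marker scaling, with or without the filter. On that scale 178 of all 16012 genes were lower with the filter, and 279 of 31609 without it. The count of 2 higher members was 1 with quantile normalization, eBayes without trend, voom and no filter, and 1 to 2 with a library left out; Mbp was the member lost, and the cause was not tested. Adipocyte-marker scaling turned the log2 changes of Cdh19 (0.30), Scn7a (0.20), Prx (0.19), Pmp22 (0.13), Klf10 (0.73), Erbb2 (0.67), Zeb2 (0.65), Matn2 (0.11) and Uchl1 (0.15) to positive; it shifts the median of all genes by 1.43. Without a filter, where the shift is 0.52, it turned Sox10 to 0.23. TPM shifts that median by 0.19. Erbb3 was at -0.14 under quantile normalization, which shifts it by -0.20, and Ncam1 at -0.084 with KLF10AKO replicate 4 alone.

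Same-numbered WT and KLF10AKO libraries correlated at only 0.0030 to 0.0310 after removing group means. Even so, the best match of WT replicates 1, 3 and 4 was the KLF10AKO library of the same number. The labels do not say whether the numbers pair libraries, and these values cannot decide it. With the replicate block 4 members were lower and 2 higher, and 2 named genes lost their call, Erbb3 (adjusted p = 0.0675) and Mag (adjusted p = 0.0699). Depth limits Sox10, Ncam1, Drp2 and Mag, with at most 66 reads per library. It also limits Mal (6 to 55 reads), Prph (0 to 49) and Uchl1 (16 to 68).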
